A study of Mus musculus with 18 samples.

Results

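The de novo lipogenesis genes described here are *Acly*, *Acaca*, *Acacb*, *Fasn*, *Me1*, *Scd1*, *Scd2*, *Elovl5*, *Elovl6* and *Thrsp*. They were chosen by name for their known roles, with earlier results of these data known, and make up 10 of the 55487 genes in the deposited count table. The study deleted CSN8, a subunit of the COP9 signalosome encoded by *Cops8*, in adipocytes; the signalosome removes NEDD8, a small ubiquitin-like protein, from cullin ubiquitin ligases. Total RNA depleted of ribosomal RNA was sequenced from male mice fed chow and fasted for 4 h, with each library made from 1 mouse. *Csn8* AKO mice carried floxed *Csn8* alleles (*Csn8* f/f) and a Cre recombinase driven by the adiponectin (*Adipoq*) promoter, and Ctrl mice were *Csn8* f/f littermates without Cre. Subcutaneous white adipose tissue (sWAT) came from 12-week-old mice, 4 Ctrl and 4 *Csn8* AKO. Brown adipose tissue (BAT) came from 4-week-old mice, 5 Ctrl and 5 *Csn8* AKO.

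De novo lipogenesis turns carbon from glucose into fatty acids. Citrate exported from mitochondria is cleaved to cytosolic acetyl-CoA, acetyl-CoA is carboxylated to malonyl-CoA, fatty acid synthase builds palmitate from these units with reducing power from NADPH, and elongases and desaturases then lengthen the chain and introduce double bonds. In adipose tissue the pathway responds to insulin and feeding through the transcription factors SREBP1c and ChREBP, and brown fat is known for high lipogenic gene expression.

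Levels are given as counts per 1000000 counts (CPM) after TMM scaling, which corrects library totals for composition. Differences are log2 fold changes, *Csn8* AKO over Ctrl, from an edgeR quasi-likelihood fit over all genes tested in a tissue. A gene was called when its p, adjusted over all those genes by the Benjamini-Hochberg method, was under 0.05. Alternatives used other scalings, filters, tools and designs, or left out each library in turn (leave-one-out fits); ranges over alternatives do not include fits with only 2 libraries a group. Total counts per library ranged from 15835721 to 23109603 in sWAT (two-sided exact permutation test of Ctrl against *Csn8* AKO, p = 0.943) and from 26658593 to 66719937 in BAT (exact p = 0.103).

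Some libraries stood apart. In sWAT the share of counts in ribosomal RNA genes was 2.38, 18.2, 19.8 and 1.80% in the 4 Ctrl libraries in order of replicate and 3.96, 4.83, 31.8 and 47.8% in the 4 *Csn8* AKO libraries (exact p = 0.343). In BAT it ranged from 0.863% to 10.1% in Ctrl and from 1.06% to 15.1% in *Csn8* AKO (exact p = 0.635). Ctrl replicate 2 of sWAT had the highest Ctrl level of 9 of the 10 members, up to several fold above the next Ctrl library. Ctrl replicate 4 of BAT had the lowest Ctrl level of 8 of the 10 members, all but *Acacb* and *Thrsp*, and was far below the others for *Scd1*. Values without these libraries are given beside several results, a choice made after their values were seen.

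The targeted gene, *Cops8*, was at 33.9, 36.2, 34.8 and 35.0 CPM in the Ctrl libraries of sWAT and at 33.0, 29.2, 30.7 and 36.0 CPM in the *Csn8* AKO libraries. In BAT it was at 36.5, 39.0, 40.1, 37.1 and 44.6 CPM in Ctrl and 28.2, 29.7, 34.5, 31.4 and 36.9 CPM in *Csn8* AKO. The ranges overlapped in both tissues. The log2 fold change was −0.12, SE 0.11, adjusted p 0.623, in sWAT, and −0.30, SE 0.09, adjusted p 0.0211, in BAT. The BAT call was kept in 7 of 10 leave-one-out fits and lost without Ctrl replicate 5 or *Csn8* AKO replicate 1 or 4 (adjusted p over the 10 fits 0.0132 to 0.0579). The count covers the whole gene, including exons outside the deletion and RNA from cells without Cre, so it does not measure the deletion. The tissue labels were checked against *Ucp1*, the brown adipocyte uncoupling protein. Its mean was 2.04 ± 3.23 CPM in Ctrl and 0.316 ± 0.318 CPM in *Csn8* AKO in sWAT, against 2780.4 ± 1134 CPM in Ctrl and 4017 ± 1061 CPM in *Csn8* AKO in BAT (SD, n = 4 and n = 5 a group). The adipocyte hormone *Adipoq* was present in every group, with means of 1411 ± 187 CPM in Ctrl and 882 ± 269.6 CPM in *Csn8* AKO in sWAT and of 644 ± 16.3 CPM in Ctrl and 687 ± 62.0 CPM in *Csn8* AKO in BAT.

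The 10 members together took 4.84% ± 1.84 of all counts in Ctrl sWAT (SD, n = 4; range 3.21% to 7.45%, the highest in Ctrl replicate 2) and 1.61% ± 0.457 in *Csn8* AKO sWAT (n = 4; 1.27% to 2.24%). In BAT they took 11.4% ± 2.33 in Ctrl (n = 5; 7.51% to 13.7%, the lowest in Ctrl replicate 4) and 7.00% ± 1.15 in *Csn8* AKO (n = 5; 5.41% to 8.33%). The ranges did not overlap in sWAT and overlapped in BAT. These shares are not scaled and include the ribosomal RNA counts in their total.

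**Figure D1:**
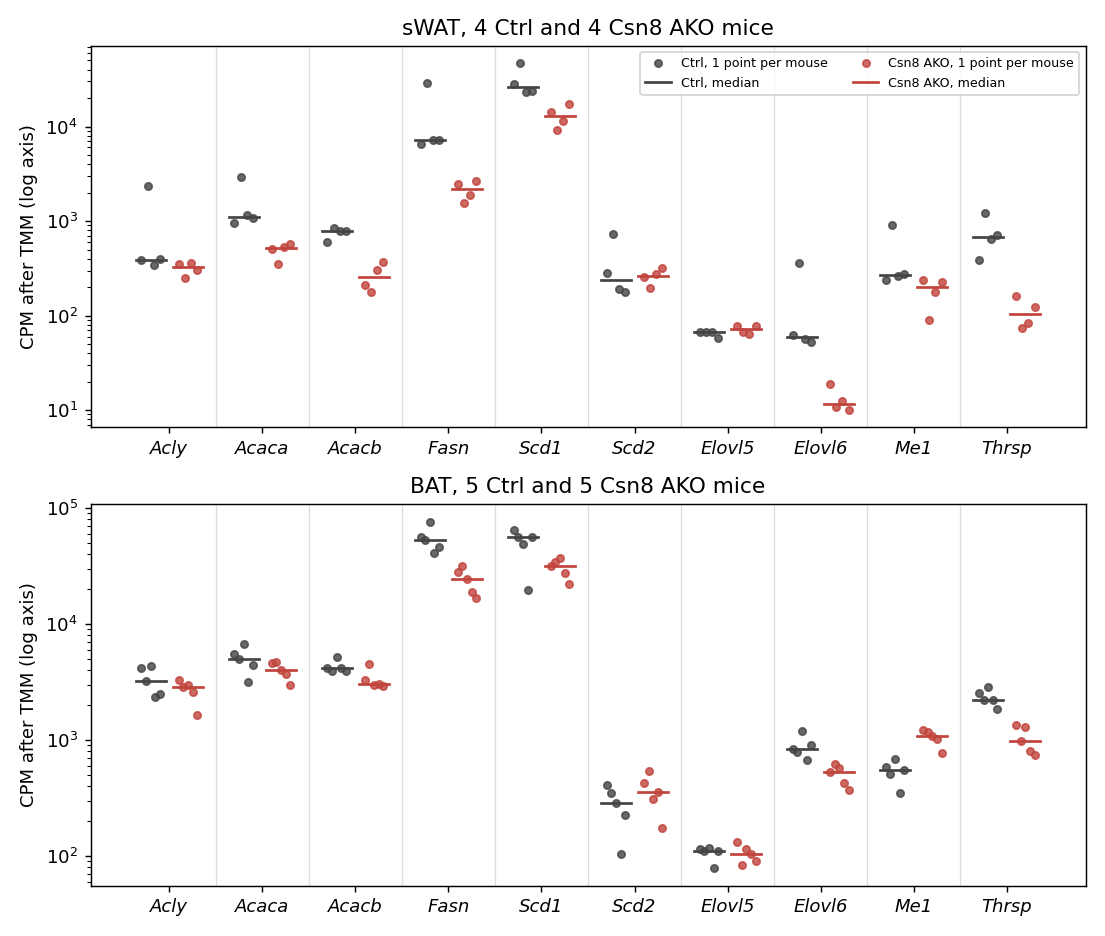
Level of each lipogenesis gene in every library, in CPM after TMM scaling on a log axis. Ctrl and *Csn8* AKO have 4 libraries each in sWAT and 5 libraries each in BAT. Points are libraries and bars are group medians. *Fasn* sat between 6529 and 28748 CPM in Ctrl sWAT and between 1549 and 2652 CPM in *Csn8* AKO sWAT, while *Elovl5* sat between 58.1 and 77.7 CPM in all 8.

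Per kilobase of gene length, the scale on which genes can be compared, *Scd1* was the most abundant member in all 4 groups and *Fasn* came next. Gene length here and below is the exon length given with the counts, not the genomic span (17074 bases for *Acaca*). In Ctrl sWAT the mean levels were 6230.5 CPM per kilobase for *Scd1*, 1132 for *Fasn*, 337 for *Thrsp*, 165 for *Acly*, 109 for *Me1*, 89.2 for *Acaca*, 78.4 for *Acacb*, 63.3 for *Scd2*, 20.5 for *Elovl6* and 18.3 for *Elovl5*. Among neighbours in this order, the ranges over libraries were separate only for *Scd1* against *Fasn* and *Fasn* against *Thrsp*. This order rests on Ctrl replicate 2. Without it the means were 5127 for *Scd1*, 633 for *Fasn*, 264 for *Thrsp*, 75.5 for *Acacb*, 71.4 for *Acly*, 67.4 for *Me1*, 62.2 for *Acaca*, 39.7 for *Scd2*, 18.1 for *Elovl5* and 8.89 for *Elovl6*, the last 2 with separate ranges and in the reverse order. In Ctrl BAT *Scd1* was at 10069 CPM per kilobase, *Fasn* at 4975, *Thrsp* at 1065, *Acly* at 627, *Acacb* at 446, *Acaca* at 291, *Me1* at 139, *Elovl6* at 136, *Scd2* at 50.1 and *Elovl5* at 30.0. Here the ranges of *Scd1* and *Fasn*, *Acly* and *Acacb*, *Me1* and *Elovl6*, and *Scd2* and *Elovl5* overlapped, and those of the other neighbours did not. Without BAT Ctrl replicate 4 the order was the same, and *Scd1* and *Fasn*, and *Scd2* and *Elovl5*, had separate ranges. In *Csn8* AKO sWAT *Elovl6* came last, at a mean of 2.03 CPM per kilobase below *Elovl5* at 20.3, with separate ranges, as in the 3 Ctrl libraries other than replicate 2, and *Acly*, at 60.2, came above *Thrsp*, at 50.5, with overlapping ranges. In *Csn8* AKO BAT, too, *Acly*, at 505 CPM per kilobase, came above *Thrsp*, at 469.9, and *Me1*, at 272, came above *Acaca*, at 233, with overlapping ranges in both pairs.

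The sWAT comparison asks whether loss of CSN8 in adipocytes changed the lipogenic genes of white fat at 12 weeks of age. All 10 members had enough counts to be tested. Ctrl replicate 2 was high for most of them, so the log2 fold change of each is given below with and without it. Of the 10 members, 4 were called lower in *Csn8* AKO (*Acaca*, *Acacb*, *Fasn* and *Thrsp*), against 3.00% of all genes tested (566 of 18843). By edgeR 0 members were called higher, against 2.30% of all genes (434), and 0 were higher at an unadjusted p under 0.05; DESeq2 and limma voom also called 0 higher. An unadjusted p under 0.05 was found for 7 members, each of them lower, against 20.4% of all genes in either direction (3838). The levels of 7 members, *Acaca*, *Acacb*, *Fasn*, *Scd1*, *Elovl6*, *Me1* and *Thrsp*, were lower in every *Csn8* AKO library than in every Ctrl library, against 8.23% of all genes (1550), and no member was higher in every *Csn8* AKO library, against 5.80% of all genes (1092). The median log2 fold change was −1.48 over the members and 0.03 over all genes tested, and −1.03 and 0.02 without Ctrl replicate 2. The same 7 members were separate there, which leaving out a library could not change, and no further member became separate. The number called lower was 2 without *Csn8* AKO replicate 1, without *Csn8* AKO replicate 2 or without *Csn8* AKO replicate 3, and 5 without Ctrl replicate 2.

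The BAT comparison asks the same of brown fat at 4 weeks of age. All 10 members were tested. Of these, 3 were called lower in *Csn8* AKO (*Fasn*, *Elovl6* and *Thrsp*), against 15.8% of all genes tested (3536 of 22345), and 1 was called higher (*Me1*), against 16.0% (3585). For the higher direction, 1 of 10 was below the background. DESeq2 called 5 lower, the same 3 with *Scd1* and *Acacb*, and 3929 of all genes lower. The levels of the same 3 members were lower in every *Csn8* AKO library than in every Ctrl library, against 10.9% of all genes (2438), and *Me1* was higher in every *Csn8* AKO library, against 10.1% (2260). The remaining 6 members overlapped between groups. The median log2 fold change was −0.34 over the members and 0.01 over all genes. With scaling by library size alone the median of all genes moved by 0.13 in BAT, and the share of called genes that were higher went from 50.3% to 66.7% in BAT and from 43.4% to 24.4% in sWAT. In a bulk library, fewer adipocytes and less of an RNA per adipocyte cannot be told apart.

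*Acly* (ENSMUSG00000020917, chromosome 11, 100476353 to 100528000, GRCm38) encodes ATP citrate lyase, which splits citrate into acetyl-CoA and oxaloacetate in the cytosol. In sWAT it was at 383, 2351, 347 and 401 CPM in Ctrl and 354, 251, 362 and 303 CPM in *Csn8* AKO. Apart from Ctrl replicate 2, the groups overlapped. The log2 fold change was −1.45, SE 0.65, adjusted p 0.257, and without Ctrl replicate 2 it was −0.26 (adjusted p 0.584); over all alternatives the adjusted p ranged from 0.0672 to 0.593. In BAT *Acly* was at 4146, 3238, 4318, 2367 and 2489.5 CPM in Ctrl and 3284, 2881, 2948, 2576 and 1653 CPM in *Csn8* AKO. The groups overlapped, with the lowest library in *Csn8* AKO and the highest in Ctrl, and the difference was not called (log2 fold change −0.31, SE 0.21, adjusted p 0.280).

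Acetyl-CoA carboxylase makes malonyl-CoA, and it comes in a cytosolic form, encoded by *Acaca* (ENSMUSG00000020532, chromosome 11, 84129672 to 84401651), and a form at the mitochondrial outer membrane, encoded by *Acacb* (ENSMUSG00000042010, chromosome 5, 114146535 to 114250761), whose product also restrains fatty acid oxidation. *Acaca* in sWAT was at 953, 2907, 1153 and 1079.9 CPM in Ctrl and 511, 352, 533 and 579 CPM in *Csn8* AKO. All 4 *Csn8* AKO libraries lay below all 4 Ctrl libraries, of which replicate 2 was far above the rest. *Acaca* fell, with a log2 fold change of −1.63, SE 0.37, adjusted p 0.0337, a 3.09-fold lower level, and −1.11 (adjusted p 0.0391) without Ctrl replicate 2. The call was lost without *Csn8* AKO replicate 1 (adjusted p 0.0903), 2 (0.0559), 3 (0.0998) or 4 (0.0522), and without Ctrl replicate 3 (0.0665) or 4 (0.0587). With a replicate term it was lost too (adjusted p 0.135). *Acacb* in sWAT was at 608, 841, 779 and 794 CPM in Ctrl and 212, 178, 303 and 368 CPM in *Csn8* AKO. Here Ctrl replicate 2 lay close to the other Ctrl libraries, and the groups were well separated. *Acacb* fell, with a log2 fold change of −1.51, SE 0.25, adjusted p 0.00865, a 2.85-fold lower level; it was −1.46 (adjusted p 0.0313) without Ctrl replicate 2 and was called in all 8 fits that left out 1 library.

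In BAT the carboxylases overlapped between genotypes. *Acaca* was at 5487, 4948, 6776, 3144 and 4459.8 CPM in Ctrl and 4574, 4661, 4044, 3679 and 2955 CPM in *Csn8* AKO. *Acacb* was at 4208, 3939, 5189.6, 4199 and 3922 CPM in Ctrl and 3312, 4505, 2974, 3049.8 and 2907 CPM in *Csn8* AKO. For *Acacb* the overlap came from *Csn8* AKO replicate 2, since the other *Csn8* AKO libraries lay below the lowest Ctrl library. Neither was called (log2 fold change −0.32, SE 0.19, adjusted p 0.225, for *Acaca* and −0.36, SE 0.14, adjusted p 0.0727, for *Acacb*). Without *Csn8* AKO replicate 2, *Acacb* was called at −0.49 (adjusted p 0.00172), and with all libraries it was called by DESeq2 (adjusted p 0.0341), by limma voom (0.00394) and with no filter (0.0191); over all alternatives its adjusted p ranged from 0.00172 to 0.180.

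*Fasn* (ENSMUSG00000025153, chromosome 11, 120805846 to 120824547) encodes fatty acid synthase, the multienzyme protein that builds palmitate. In sWAT it was at 6529, 28748, 7137 and 7137 CPM in Ctrl and 2489, 1549, 1905 and 2652 CPM in *Csn8* AKO. The groups were separate, with Ctrl replicate 2 at several times the level of the other Ctrl libraries. *Fasn* fell in *Csn8* AKO sWAT (log2 fold change −2.53, SE 0.52, adjusted p 0.0248; 5.77-fold lower), and without Ctrl replicate 2 the log2 fold change was −1.70 (adjusted p 0.0203). The call was lost without *Csn8* AKO replicate 1 (adjusted p 0.0730), 2 (0.0522) or 3 (0.0932), with log2 fold changes of −2.61, −2.40 and −2.48. It was also lost with a replicate term (adjusted p 0.106). In BAT *Fasn* was at 56187, 52602, 76537, 40773 and 46234 CPM in Ctrl and 27932, 31793, 24528, 18715 and 16611 CPM in *Csn8* AKO. Every *Csn8* AKO library lay below every Ctrl library. *Fasn* fell in BAT, with a log2 fold change of −1.19, SE 0.22, adjusted p 0.000906 (2.28-fold lower), and the gene was called in all 10 fits that left out 1 library, with adjusted p over all alternatives from 7.90e-08 to 0.0231.

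*Me1* (ENSMUSG00000032418, chromosome 9, 86581371 to 86695953) encodes cytosolic malic enzyme, which yields NADPH as it turns malate into pyruvate. In sWAT it was at 238, 905, 263 and 277 CPM in Ctrl and 236, 90.0, 177 and 229 CPM in *Csn8* AKO. The groups were separate by a narrow margin, since the highest *Csn8* AKO library lay just below the lowest Ctrl library. The difference was not called (log2 fold change −1.20, SE 0.50, adjusted p 0.215), and without Ctrl replicate 2 it was −0.51 (adjusted p 0.487); over all alternatives the adjusted p ranged from 0.0544 to 0.538. In BAT *Me1* was at 581, 508, 689.8, 351 and 547 CPM in Ctrl and 1208, 1165, 1079, 1017 and 769.6 CPM in *Csn8* AKO. Here the genotypes were separate, with the *Csn8* AKO libraries on the high side, and *Me1* was the 1 member that rose. It rose by 0.97, SE 0.17, adjusted p 0.000572, on the log2 scale (1.96-fold higher). It was called in all 10 fits that left out 1 library and, with all 4 groups in a single fit, had an adjusted p of 0.0569 (range over alternatives 3.76e-07 to 0.0569). An antisense gene, *A330041J22Rik*, shares 30 exonic bases with *Me1*, with 9 to 38 counts in the Ctrl and 48 to 239 counts in the *Csn8* AKO libraries of BAT, against 19003 to 74366 counts for *Me1*; whether strand was used in the counting is not stated.

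*Scd1* (ENSMUSG00000037071, chromosome 19, 44394455 to 44407879) and *Scd2* (ENSMUSG00000025203, chromosome 19, 44293674 to 44306864) encode stearoyl-CoA desaturases, which turn saturated acyl-CoA into monounsaturated forms. *Scd1* in sWAT was at 28491, 46668, 23278 and 23481 CPM in Ctrl and 14234, 9136, 11479 and 17518 CPM in *Csn8* AKO. The groups were separate. The difference was not called (log2 fold change −1.22, SE 0.35, adjusted p 0.0775); without Ctrl replicate 2 it was −0.95 (adjusted p 0.202). Among the alternatives *Scd1* was called by DESeq2 and limma voom, with library size alone, with all 4 groups in a single fit and with the ribosomal RNA share as a covariate (adjusted p over all alternatives 0.000619 to 0.2499). *Scd2* in sWAT was at 284, 734, 189.9 and 176 CPM in Ctrl and 258, 194, 272 and 316 CPM in *Csn8* AKO. The groups overlapped, and the sign of the difference rested on Ctrl replicate 2: the log2 fold change was −0.41, SE 0.44, adjusted p 0.665, with it and 0.25 (adjusted p 0.693) without it.

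In BAT *Scd1* was at 64387, 56767, 48978, 19723 and 56427 CPM in Ctrl and 31867, 34068, 37141, 27584 and 21936 CPM in *Csn8* AKO. Ctrl replicate 4 lay below every *Csn8* AKO library, and the other 4 Ctrl libraries lay above every *Csn8* AKO library. For *Scd1* the log2 fold change was −0.69, SE 0.27, adjusted p 0.0613, not called, and without Ctrl replicate 4 it was −0.89 (adjusted p 0.00295), called; over all alternatives the adjusted p ranged from 0.00295 to 0.176. *Scd2* was at 408, 351, 283, 103 and 223 CPM in Ctrl and 426, 534, 309, 355 and 175 CPM in *Csn8* AKO. It overlapped between genotypes and was not called (log2 fold change 0.40, SE 0.39, adjusted p 0.484). Reads that align equally well to more than 1 of the related *Scd* genes were not counted, because the authors counted uniquely aligned reads only, and how many were lost from each gene is not known. The microRNA gene *Mir5114*, with no counts, shares 61 exonic bases with *Scd2*.

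*Elovl6* (ENSMUSG00000041220, chromosome 3, 129532355 to 129638495) encodes the elongase that lengthens palmitate, and *Elovl5* (ENSMUSG00000032349, chromosome 9, 77917364 to 77984519) encodes an elongase that acts mainly on polyunsaturated chains. *Elovl6* in sWAT was at 62.9, 356, 55.9 and 52.7 CPM in Ctrl and 18.8, 10.8, 12.6 and 10.0 CPM in *Csn8* AKO. The groups were separate, Ctrl replicate 2 being far above the other Ctrl libraries. The difference was not called (log2 fold change −3.33, SE 0.77, adjusted p 0.0560), while without Ctrl replicate 2 it was smaller and called, at −2.14 (adjusted p 0.00463); over all alternatives the adjusted p ranged from 0.00104 to 0.155. *Elovl5* in sWAT was at 66.4, 66.7, 67.2 and 58.1 CPM in Ctrl and 77.5, 67.6, 63.3 and 77.7 CPM in *Csn8* AKO. The groups overlapped, Ctrl replicate 2 was level with the others, and nothing was called (log2 fold change 0.15, SE 0.12, adjusted p 0.557; without Ctrl replicate 2, 0.15, adjusted p 0.690).

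In BAT *Elovl6* was at 833, 787, 1201, 666 and 900.3 CPM in Ctrl and 533, 623, 569, 428 and 372 CPM in *Csn8* AKO. Every *Csn8* AKO library lay below every Ctrl library. *Elovl6* fell in BAT (log2 fold change −0.80, SE 0.17, adjusted p 0.00259; 1.74-fold lower) and was called in all 10 fits that left out 1 library. With all 4 groups in a single fit the adjusted p was 0.208 (range over alternatives 6.59e-05 to 0.208). *Elovl5* was at 113, 109.7, 118, 78.0 and 110.1 CPM in Ctrl and 131, 84.1, 114, 103 and 90.9 CPM in *Csn8* AKO. It overlapped between genotypes, with a log2 fold change of −0.02, SE 0.13, adjusted p 0.937, whose sign changed under some alternatives, scaling by library size alone among them (0.13). An antisense gene, *Gm35986*, with 13 to 129 counts a library in BAT, shares 34 exonic bases with *Elovl6*, which had 11127 counts or more there.

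*Thrsp* (ENSMUSG00000035686, chromosome 7, 97412938 to 97417730) encodes Spot 14, a small protein induced by thyroid hormone and carbohydrate that promotes lipogenesis. In sWAT it was at 383, 1209.9, 640.1 and 713 CPM in Ctrl and 162, 73.6, 83.1 and 124 CPM in *Csn8* AKO. The groups were separate, the lowest Ctrl library being more than 2 times as high as the highest *Csn8* AKO library. *Thrsp* fell in *Csn8* AKO sWAT (log2 fold change −2.74, SE 0.38, adjusted p 0.00539; 6.66-fold lower), and the log2 fold change was −2.40 (adjusted p 0.0114) without Ctrl replicate 2. It was called in all 8 fits that left out 1 library. In BAT *Thrsp* was at 2521, 2200.3, 2855, 2222 and 1857 CPM in Ctrl and 1338, 982, 1287, 795 and 741 CPM in *Csn8* AKO. Again no *Csn8* AKO library reached the lowest Ctrl library. *Thrsp* fell in BAT too, with a log2 fold change of −1.18, SE 0.18, adjusted p 0.000202 (2.27-fold lower), called in all 10 fits that left out 1 library.

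**Figure D2:**
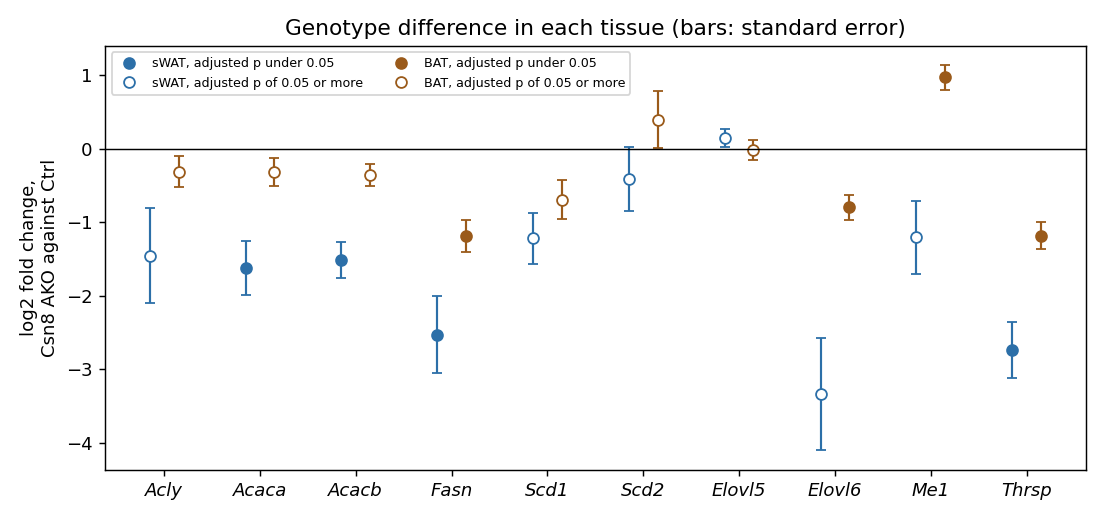
Log2 fold change of each lipogenesis gene, *Csn8* AKO over Ctrl, in sWAT (4 against 4 libraries) and BAT (5 against 5 libraries), with bars of 1 standard error; filled points had an adjusted p under 0.05. *Thrsp* was at −2.74 in sWAT and −1.18 in BAT, and *Me1* at −1.20 in sWAT and 0.97 in BAT.

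Ribosomal RNA shares differed among the sWAT libraries, and members were fitted again within libraries of like share, an alternative chosen after the shares were seen. With only the libraries above 15% (Ctrl replicates 2 and 3, *Csn8* AKO replicates 3 and 4), the log2 fold change was −2.97 for *Fasn*, −3.15 for *Thrsp*, −1.86 for *Acaca* and −1.27 for *Acacb*. With only those under 5% (Ctrl replicates 1 and 4, *Csn8* AKO replicates 1 and 2) it was −1.73, −2.18, −1.21 and −1.82 for the same genes. Every *Csn8* AKO library lay below every Ctrl library for these 4 genes, so their direction could not change in a subset, and the set above 15% holds Ctrl replicate 2. With 2 libraries against 2, the first set called *Acacb* (adjusted p 0.0285) and *Thrsp* (0.0140), and the second called none of them (adjusted p from 0.467 to 0.584). With the log2 share as a covariate 6 members were called lower, the 4 above with *Scd1* and *Elovl6*, while the number of all genes called lower went from 566 to 832. The part of the ribosomal RNA share in these results was not tested.

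The interaction comparison asks whether the change with genotype differed between the tissues, which a call in one tissue and not in the other does not show. It cannot tell tissue from age, since BAT came from 4-week-old and sWAT from 12-week-old mice. Of the 10 members, 2 were called, against 2.36% of all genes tested (532 of 22509), and 6 had an unadjusted p under 0.05, all with a positive difference, BAT minus sWAT, against 15.3% of all genes in either direction (3439). DESeq2 called 5 members and 1092 of all genes, and limma voom 3 and 903. With library size alone (533 of all genes) or the filter at over 1 CPM (582), 4 members were called. With no filter 1 member was called (422 of all genes), and with a replicate term 0 were (297). *Me1* was called in neither of these last settings, and *Acacb* was not called with the replicate term. Scaling by library size alone moved the median of all genes by 0.22, and the share of called genes with a positive difference was 68.0% with TMM and 92.7% with library size alone. *Me1* differed by 2.16, SE 0.52, adjusted p 0.0350, the change being negative and not called in sWAT and positive in BAT. *Acacb* differed by 1.14, SE 0.30, adjusted p 0.0456, its change being more negative in sWAT. Without sWAT Ctrl replicate 2 the difference was 1.44 (adjusted p 0.0424) for *Me1* and 1.07 (adjusted p 0.0906) for *Acacb*. *Thrsp* (1.55, SE 0.42, adjusted p 0.0565) and *Elovl6* (2.54, SE 0.68, adjusted p 0.0647) were not called, nor were *Fasn* (1.34, SE 0.55, adjusted p 0.239; without sWAT Ctrl replicate 2, 0.48, adjusted p 0.612), *Acaca*, *Acly*, *Scd1*, *Scd2* and *Elovl5*.

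Both interaction calls lay near the threshold, and the number of members called ranged from 0 to 4 over the leave-one-out fits. *Acacb* was called in 4 of 18 leave-one-out fits, those without sWAT Ctrl replicate 1 (adjusted p 0.0300), sWAT *Csn8* AKO replicate 2 (0.0427), sWAT *Csn8* AKO replicate 4 (0.0136) and BAT Ctrl replicate 3 (0.0479), and in the other 14 its adjusted p reached at most 0.0967. *Me1* was called in 10 of 18 and lost without sWAT *Csn8* AKO replicate 3 (adjusted p 0.0666), BAT Ctrl replicate 1 (0.0545), 2 (0.0652), 4 (0.0644) or 5 (0.0549), and BAT *Csn8* AKO replicate 1 (0.0542), 3 (0.0585) or 4 (0.0590). *Elovl6* was called without any 1 of the 4 sWAT Ctrl libraries (adjusted p 0.0299 to 0.0418; difference 1.30 without replicate 2), and *Thrsp* without sWAT Ctrl replicate 1 (0.0158) or sWAT *Csn8* AKO replicate 1 (0.0316).

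Within 3 pairs of related members, the ratio of counts per base of gene length was compared between genotypes, which needs no scaling between libraries; p-values are from two-sided exact permutation tests, adjusted over the 6 tests. The log2 ratio of *Scd2* to *Scd1* in sWAT was −6.81, −6.15, −7.10 and −7.22 in Ctrl and −5.95, −5.72, −5.56 and −5.95 in *Csn8* AKO. In BAT it was −7.46, −7.50, −7.59, −7.74 and −8.14 in Ctrl and −6.38, −6.15, −7.07, −6.44 and −7.13 in *Csn8* AKO. Every *Csn8* AKO library was above every Ctrl library in both tissues, so *Scd2* made up a larger part of the pair. The difference of means was 1.03 in sWAT (exact p = 0.0286, the smallest that 4 against 4 libraries allow; adjusted p = 0.0429) and 1.05 in BAT (exact p = 0.00794, the smallest that 5 against 5 allow; adjusted p = 0.0429). Without any 1 of the 8 sWAT libraries the exact p was 0.0571, the smallest that 3 against 4 libraries allow. Those comparisons cannot reach 0.05. Without any 1 of the 10 BAT libraries it was 0.0159, the smallest that 4 against 5 libraries allow. Groups that are separate with all libraries stay separate in every subset, so these p-values were fixed in advance and do not test stability. Without sWAT Ctrl replicate 2 the sWAT difference was 1.25, and without BAT Ctrl replicate 4 the BAT difference was 1.04.

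The log2 ratio of *Elovl5* to *Elovl6* in sWAT was 0.95, −1.55, 1.13 and 1.01 in Ctrl and 2.92, 3.52, 3.20 and 3.82 in *Csn8* AKO. In BAT it was −2.01, −1.97, −2.48, −2.22 and −2.16 in Ctrl and −1.16, −2.02, −1.46, −1.18 and −1.16 in *Csn8* AKO. The genotypes were separate in sWAT, and in BAT *Csn8* AKO replicate 2 lay among the Ctrl libraries. The difference of means was 2.98 in sWAT (exact p = 0.0286, adjusted p = 0.0429) and 2.33 without Ctrl replicate 2, and 0.77 in BAT (exact p = 0.0238, adjusted p = 0.0429) and 0.76 without Ctrl replicate 4. Without any 1 BAT library the exact p was 0.0159 to 0.0476. The log2 ratio of *Acacb* to *Acaca* overlapped between genotypes in both tissues. It differed by −0.07 in sWAT (exact p = 0.83) and by −0.08 in BAT (exact p = 0.730, adjusted p = 0.83 for both); without sWAT Ctrl replicate 2 the difference was −0.38 and every *Csn8* AKO library lay below the 3 Ctrl libraries left (exact p = 0.0571, the smallest that 3 against 4 allow), and without BAT Ctrl replicate 4 it was 0.07.

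**Figure D3:**
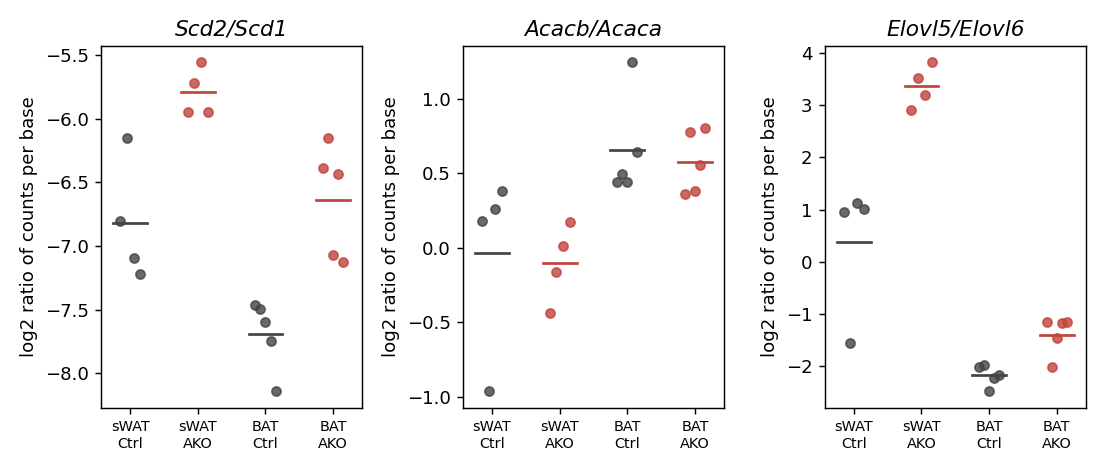
Log2 ratio of counts per base of gene length within 3 pairs of related lipogenesis genes, in each library of Ctrl and *Csn8* AKO sWAT and BAT; points are libraries and bars are group means. The mean ratio of *Scd2* to *Scd1* went from −6.82 to −5.79 in sWAT and from −7.69 to −6.64 in BAT.

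Genes around the pathway were counted in 5 further lists, to be read against the shares over all genes, 3.00% lower and 2.30% higher in sWAT and 15.8% lower and 16.0% higher in BAT by edgeR. The other tools called more of all genes: DESeq2 1034 lower and 912 higher and limma voom 1078 and 1077 in sWAT, and DESeq2 3929 and 4038 and limma voom 4507 and 4496 in BAT, against 566 and 434, and 3536 and 3585, by edgeR. An unadjusted p under 0.05 was found for 20.4% of all genes in sWAT and 41.7% in BAT, in either direction. The first, with 14 genes of precursor and NADPH supply, had a median log2 fold change of −0.29 in sWAT, where the 1 gene called by edgeR (DESeq2 and limma voom called 3 each) was the acetoacetyl-CoA synthetase gene *Aacs*, lower in *Csn8* AKO (357 ± 58.6 CPM in Ctrl and 115 ± 25.2 CPM in *Csn8* AKO; −1.63, adjusted p 0.00269). In BAT 4 of 14 were called lower, against 15.8% of all genes, and 2 of 14 higher, below the 16.0% of all genes (median 0.05), among them the mitochondrial acetyl-CoA synthetase *Acss1* (−1.15, adjusted p 0.00107), the mitochondrial malic enzyme *Me3* (−0.95, adjusted p 2.68e-05), *Aacs* (−0.94, adjusted p 0.0143) and, higher, the pentose phosphate enzyme *Pgd* (0.42, adjusted p 0.0356) and pyruvate carboxylase *Pcx* (0.33, adjusted p 0.0419). *Pgd* was called in 4 of 10 leave-one-out fits (without Ctrl replicate 3, Ctrl replicate 5, *Csn8* AKO replicate 4 and *Csn8* AKO replicate 5; adjusted p over the 10 fits 0.00910 to 0.0916), and *Pcx* in 3 of 10 leave-one-out fits (without Ctrl replicate 3, *Csn8* AKO replicate 2 and *Csn8* AKO replicate 4; adjusted p over the 10 fits 0.00886 to 0.102). The number called higher fell to 0 without Ctrl replicates 1, 2 or 4 or *Csn8* AKO replicates 1 or 3, each alone, and to 1 without Ctrl replicate 5 or *Csn8* AKO replicate 5. The citrate carrier *Slc25a1*, which brings mitochondrial citrate to the cytosol, was not called in sWAT (374 ± 228 CPM in Ctrl and 138 ± 44.3 CPM in *Csn8* AKO; −1.44, adjusted p 0.0753) or in BAT (−0.51, adjusted p 0.0597), and was called in BAT in 2 of 10 leave-one-out fits (without Ctrl replicate 2 and Ctrl replicate 5; adjusted p over the 10 fits 0.0374 to 0.136). Over the leave-one-out fits the log2 fold change of *Slc25a1* ranged from −1.62 to −0.92 in sWAT (adjusted p 0.0736 to 0.176). In BAT it ranged from −0.59 to −0.29. The MID1-interacting protein *Mid1ip1*, a relative of Spot 14, was not called (−0.32, adjusted p 0.686 in sWAT and 0.30, adjusted p 0.309 in BAT).

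In the second list, of 17 other elongation and desaturation genes, 15 were tested in sWAT, and the 3 called were lower (median 0.09). They were *Scd3* (−1.13, adjusted p 0.0375), *Fads3* (−1.09, adjusted p 0.0404) and the dehydratase *Hacd2* (−1.09, adjusted p 0.0217). *Scd3* was called in 2 of 8 leave-one-out fits (without Ctrl replicate 3 and *Csn8* AKO replicate 4; adjusted p over the 8 fits 0.0375 to 0.121), *Fads3* in 2 of 8 leave-one-out fits (without *Csn8* AKO replicate 2 and *Csn8* AKO replicate 4; adjusted p over the 8 fits 0.0187 to 0.131) and *Hacd2* in 4 of 8 leave-one-out fits (without Ctrl replicate 1, *Csn8* AKO replicate 1, *Csn8* AKO replicate 2 and *Csn8* AKO replicate 4; adjusted p over the 8 fits 0.0140 to 0.0835). None of the 3 was called without Ctrl replicate 2. In BAT 16 were tested and 8 were called, each of them higher (median 0.44). For this list edgeR called 0 genes higher in sWAT, where 3 had an unadjusted p under 0.05, DESeq2 called 0 and limma voom 2, and edgeR called 1 without Ctrl replicate 4 and 2 without *Csn8* AKO replicate 2. The 3 lower in sWAT were 1 without Ctrl replicate 1 or 3 or *Csn8* AKO replicate 1, and 0 without Ctrl replicate 2 or 4 or *Csn8* AKO replicate 3. In BAT edgeR called 0 lower, where 3 had an unadjusted p under 0.05, DESeq2 called 2 and limma voom 0, and edgeR called 2 without Ctrl replicate 4 and 1 without Ctrl replicate 5. The largest changes were in *Elovl3*, an elongase of long saturated chains (21.1 ± 12.2 CPM in Ctrl and 214 ± 70.6 CPM in *Csn8* AKO; 3.34, adjusted p 0.000819), *Elovl7* (1.71, adjusted p 0.00124) and the delta-5 desaturase *Fads1* (14.0 ± 3.65 CPM in Ctrl and 40.5 ± 8.74 CPM in *Csn8* AKO; 1.54, adjusted p 7.14e-05). In the interaction 4 genes of the list were called, against 2.36% of all genes, each with a positive difference, BAT minus sWAT: *Fads1* (1.99, adjusted p 0.00730), *Fads3* (1.93, adjusted p 0.00364) and *Fads6* (1.67, adjusted p 0.0200; chosen after its values were seen), each in all 18 leave-one-out fits, and *Hacd2* (1.51, adjusted p 0.0396), in 6 of 18, those without sWAT Ctrl replicate 1, sWAT *Csn8* AKO replicate 1 or 4, BAT Ctrl replicate 3 or 5, or BAT *Csn8* AKO replicate 1 (adjusted p over the 18 fits 0.0191 to 0.0856).

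The third list, mitochondrial fatty acid synthesis, is a separate pathway that makes the lipoic acid precursor. Of its 10 genes 9 were tested. In sWAT edgeR called 3, all lower (median −0.67), and limma voom 5: *Acsf3* (−1.12, adjusted p 0.00903), *Mecr* (−1.05, adjusted p 0.00774) and *Mcat* (−0.67, adjusted p 0.0344), the last called in 2 of 8 leave-one-out fits (without *Csn8* AKO replicate 2 and *Csn8* AKO replicate 4; adjusted p over the 8 fits 0.0311 to 0.103). In BAT 8 of 9 were called, all lower (median −0.76), with the largest changes in *Lipt2* (−1.01, adjusted p 0.000269), *Cbr4* (−0.97, adjusted p 5.78e-05) and *Acsf3* (−0.89, adjusted p 0.000839).

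Among 16 transcriptional regulators, the 3 called in sWAT were lower (median −0.20). *Mlxipl*, which encodes ChREBP, was at 171 ± 44.1 CPM in Ctrl and 54.4 ± 28.4 CPM in *Csn8* AKO (−1.65, adjusted p 0.0347). *Srebf1*, which encodes SREBP1, was at 622 ± 111 CPM in Ctrl and 237 ± 111 CPM in *Csn8* AKO (−1.39, adjusted p 0.0314). The thyroid hormone receptor gene *Thrb* was lower (−1.12, adjusted p 0.00930) and called in all 8 leave-one-out fits, whereas *Mlxipl* was called in 2 of 8 leave-one-out fits (without Ctrl replicate 1 and *Csn8* AKO replicate 4; adjusted p over the 8 fits 0.0109 to 0.104) and *Srebf1* in 2 of 8 leave-one-out fits (without *Csn8* AKO replicate 2 and *Csn8* AKO replicate 4; adjusted p over the 8 fits 0.00701 to 0.0985). The number called was 1 without Ctrl replicate 2, 3 or 4 or *Csn8* AKO replicate 1 or 3. In BAT 3 were called lower, *Thrb* (−0.61, adjusted p 0.00768), *Mlxipl* (−0.39, adjusted p 0.00600) and *Scap* (−0.31, adjusted p 0.0145), and 1 higher, *Mlx* (0.43, adjusted p 0.0150; median −0.07). Against 15.8% and 16.0% of all genes, 3 of 16 lower was near that share and 1 of 16 higher was below it. *Srebf1* was not called in BAT (−0.42, adjusted p 0.152), but was in 1 of 10 leave-one-out fits (without *Csn8* AKO replicate 1; adjusted p over the 10 fits 0.0170 to 0.336). *Nr1h3*, *Insig1* and *Pparg* were called in neither tissue. Their log2 fold changes were −0.20, 0.54 and −0.25 in sWAT (adjusted p 0.484, 0.578 and 0.696), and −0.21, 0.05 and 0.21 in BAT (adjusted p 0.233, 0.916 and 0.126).

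In the last list, 13 genes of insulin signalling and AMPK, 1 was called lower by edgeR in sWAT (median −0.33; 5 had an unadjusted p under 0.05, and DESeq2 and limma voom called 3 each), the insulin-responsive glucose transporter *Slc2a4*. It was at 188 ± 47.7 CPM in Ctrl and 43.1 ± 15.7 CPM in *Csn8* AKO (−2.12, adjusted p 0.00544) and was called in all 8 leave-one-out fits; the count was 2 without *Csn8* AKO replicate 2 or 4. In BAT 4 were called lower and 1 higher (median −0.03), with *Slc2a4* (−0.55, adjusted p 0.00360), *Akt2* (−0.51, adjusted p 0.00151) and *Prkag2* (−0.47, adjusted p 0.04998) lower and *Akt1* (0.51, adjusted p 0.000440) higher. *Prkag2* was called in 2 of 10 leave-one-out fits (without Ctrl replicate 3 and Ctrl replicate 5; adjusted p over the 10 fits 0.00338 to 0.114), and the count lower was 2 without Ctrl replicate 1 or 2 or *Csn8* AKO replicate 3, 4 or 5. The count higher was 3 without Ctrl replicate 5 and 2 without *Csn8* AKO replicate 2, and 2 by DESeq2 and by limma voom; 1 of 13 is below the 16.0% of all genes. *Slc2a4* fell more in sWAT than in BAT by the interaction (1.56, adjusted p 0.0112; called in all 18 leave-one-out fits).

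Markers of cell types moved with genotype beside the lipogenesis genes; counts called are to be read against 3.00% of all genes lower and 2.30% higher in sWAT, and 15.8% and 16.0% in BAT. Of 10 adipocyte markers in sWAT, 5 were called lower, and all 10 had a negative log2 fold change. Their summed level was 21347, 26221, 27734 and 28705 CPM in Ctrl and 13708, 6957, 13888 and 16039 CPM in *Csn8* AKO. The groups were separate, *Csn8* AKO replicate 2 being the lowest. *Fabp4* in sWAT was at means of 5174 CPM in Ctrl and 3685 CPM in *Csn8* AKO. Its ranges overlapped and it was not called (−0.49, adjusted p 0.419). The count called was 0 without Ctrl replicate 2, 3 or 4 or *Csn8* AKO replicate 1 or 3; DESeq2 called 6 and limma voom 7. In BAT 3 of 10 were called lower and 1 higher, *Fabp4* was at 4305 and 4781 CPM, and the sums were 16120.3, 16400.3, 20392, 20546 and 20293 CPM in Ctrl and 13982, 18378, 15163, 14817 and 16558 CPM in *Csn8* AKO, which overlap. Here the count lower was 1 without Ctrl replicate 3, 4 or 5 or *Csn8* AKO replicate 1 or 5, and 0 without *Csn8* AKO replicate 3 or 4. The part of adipocyte content in the lower lipogenesis genes was not tested.

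Of 8 macrophage markers, 6 were called higher in sWAT and 7 in BAT. Their sum in sWAT was 546, 617, 673 and 732 CPM in Ctrl and 1371, 915, 1573 and 1083 CPM in *Csn8* AKO, and in BAT 78.7, 68.6, 53.2, 76.0 and 64.3 CPM in Ctrl and 238, 194, 216, 216 and 256 CPM in *Csn8* AKO. The groups were separate in both tissues. *Mrc1* in sWAT was at 229 ± 40.6 CPM in Ctrl and 410.0 ± 97.3 CPM in *Csn8* AKO (0.84, adjusted p 0.0463). *Mrc1* was called in 1 of 8 leave-one-out fits (without *Csn8* AKO replicate 2; adjusted p over the 8 fits 0.0147 to 0.144). All 6 progenitor and fibroblast markers were called higher in BAT, where they summed to 1732, 1537, 1387, 1306 and 1009 CPM in Ctrl and 3361, 2681, 3361, 3037 and 4602 CPM in *Csn8* AKO. In sWAT edgeR called 0 of the 6, 4 had an unadjusted p under 0.05, DESeq2 called 1 and limma voom 3, each higher, and the sums were 9422, 10470.0, 9569 and 10154 CPM and 16616, 9943, 16251 and 14137 CPM; without *Csn8* AKO replicate 2 edgeR called 2. *Col3a1* was at 6083 and 8637 CPM in sWAT and at 812 and 1928 CPM in BAT. The part of these cell types in the lipogenesis results was not tested.

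Brown adipocyte markers numbered 6, of which *Ucp1* had too few counts to be tested in sWAT. In sWAT 1 of 5 was called lower (2 by DESeq2 and by limma voom), and the list summed to 45.8, 67.4, 44.8 and 53.7 CPM in Ctrl and 27.5, 11.2, 15.0 and 24.1 CPM in *Csn8* AKO. That count was 0 without Ctrl replicate 2 or 4 or *Csn8* AKO replicate 3, and 2 without Ctrl replicate 1 or *Csn8* AKO replicate 4. In the higher direction edgeR and DESeq2 called 0 in sWAT and limma voom 1, and 1 had an unadjusted p under 0.05. Without Ctrl replicate 4 edgeR called 1 higher. The marker called lower in sWAT was *Cox8b* (−1.92, adjusted p 0.0205), named after its values were seen. *Elovl3* was barely expressed in sWAT, at means of 0.386 CPM in Ctrl and 1.90 CPM in *Csn8* AKO. Its log2 fold change there was 2.27 (adjusted p 0.185), not called. In BAT 1 was called lower (2 by DESeq2 and by limma voom) and 1 higher, *Elovl3*, which is also in the elongation list above; the sums were 2480.1, 2859.6, 4580.0, 4097 and 5879.8 CPM and 3419, 7037, 6473, 5147 and 5627 CPM. The marker called lower in BAT was *Cox7a1* (−0.79, adjusted p 0.00273), also named after its values were seen. The count lower in BAT was 2 without Ctrl replicate 2 or *Csn8* AKO replicate 2, and the count higher was 3 without Ctrl replicate 5. The sums were separate in sWAT and overlapped in BAT.

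All 5 Schwann cell markers were called higher in BAT, with sums of 63.2, 57.5, 48.1, 49.0 and 52.4 CPM in Ctrl and 69.6, 59.6, 88.5, 84.9 and 106 CPM in *Csn8* AKO; the count was 2 without Ctrl replicate 3 or 4 or *Csn8* AKO replicate 3 or 5, and 3 without Ctrl replicate 5. In sWAT edgeR called 0 of them, 3 had an unadjusted p under 0.05, DESeq2 called 1 and limma voom 0, and the sums were 92.2, 97.9, 88.4 and 97.4 CPM and 103, 151, 217 and 106 CPM. *Mbp* was at 57.3 and 79.4 CPM in sWAT and at 40.6 and 50.6 CPM in BAT. The sums were separate in sWAT and overlapped in BAT. Of 4 endothelial markers 1 was called higher in BAT, and 0 without any 1 of Ctrl replicates 1, 2 and 5 and *Csn8* AKO replicates 3, 4 and 5. In sWAT edgeR called 0 of the 4, 1 had an unadjusted p under 0.05 and was lower, DESeq2 called 1 and limma voom 0. The endothelial sums were 388, 414, 391 and 448 CPM in Ctrl and 281, 374, 348 and 407 CPM in *Csn8* AKO sWAT, and 596, 646, 768, 816 and 791 CPM and 739, 634, 847, 909 and 883 CPM in BAT; *Cdh5* was at 145 and 113 CPM in sWAT and at 287 and 308 CPM in BAT.

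Markers of other tissues varied between single libraries. The 8 B and T cell markers summed to 239, 6.18, 6.99 and 15.5 CPM in Ctrl and 24.9, 477, 7.17 and 11.1 CPM in *Csn8* AKO sWAT, and to 6.98, 5.51, 3.68, 5.61 and 5.26 CPM and 7.98, 5.76, 9.28, 7.84 and 9.49 CPM in BAT. Ctrl replicate 1 and *Csn8* AKO replicate 2 of sWAT were high. In BAT 1 was called lower and 2 higher; *Cd79a* was at means of 9.87 and 25.5 CPM in sWAT and of 2.34 and 1.22 CPM in BAT. The 6 skeletal muscle markers summed to 163, 522, 2720.2 and 326 CPM and 102, 45.9, 348 and 1631 CPM in sWAT, and to 1.55, 1.78, 1.82, 1.46 and 2.11 CPM and 114, 1.34, 2.44, 2.37 and 200.3 CPM in BAT; *Myh4* was at means of 470 and 259 CPM in sWAT. *Csn8* AKO replicates 1 and 5 of BAT were high. In BAT 2 of 3 tested were called higher, a count of 0 by limma voom, 4 without *Csn8* AKO replicate 2, 0 without Ctrl replicate 2 or 3, and 1 without Ctrl replicate 1, 4 or 5 or *Csn8* AKO replicate 1 or 5. For both lists edgeR called 0 in sWAT, as did DESeq2 and limma voom, and 0 markers had an unadjusted p under 0.05. Of the 6 epithelium and skin markers only *Krt10* was tested, and edgeR called it in neither tissue (sums 1.90, 2.03, 3.61 and 8.00 CPM and 1.44, 1.63, 1.24 and 2.02 CPM in sWAT, and 3.21, 2.05, 3.61, 2.34 and 2.78 CPM and 2.16, 2.68, 1.82, 1.61 and 2.07 CPM in BAT). Its unadjusted p was under 0.05 in BAT, where limma voom called it, DESeq2 did not, and edgeR did without *Csn8* AKO replicate 2. No marker of any of the 9 lists was at 0 in all libraries of a tissue.

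With the other 9 members left out, the 5 genes whose pattern was most like that of *Fasn* over the 18 libraries were *Ppp1r3b*, *Lrrc39*, *Mpzl2*, *Gpd2* and *Rasl12*. Likeness was measured as the root mean square difference in log2 CPM, centred on the Ctrl mean of each tissue, among 9655 genes with a mean log2 CPM of at least 3. The distances were 0.247, 0.403, 0.448, 0.456 and 0.465. On the same scale the members left out of that order were at 0.373 for *Thrsp*, 0.416 for *Elovl6*, 0.618 for *Acaca*, 0.696 for *Acacb*, 0.697 for *Scd1*, 0.810 for *Acly*, 1.29 for *Me1*, 1.35 for *Scd2* and 1.37 for *Elovl5*. Ctrl replicate 2 of sWAT, which is high for *Fasn*, is among the 18 libraries. With a minimum of 1 in place of 3, and 14576 genes, *Gm9885* (0.416) came in and *Rasl12* went out. Without sWAT Ctrl replicate 2 only *Ppp1r3b* (0.2505) and *Lrrc39* (0.284) stayed among the 5, with *Dhdh* (0.217), *Mettl7a1* (0.264) and *Gstk1* (0.297) coming in. Without BAT Ctrl replicate 4 *Gpd2* and *Rasl12* gave way to *Dhdh* (0.460) and *Aldh1a7* (0.479). These fits and the genes that came in were chosen after their values were seen.

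Promoter sequences of 8 of the 10 members were found in the RefSeq table for GRCm38.p6, in 9 entries, *Me1* having 2. The entries of *Acaca* and *Acacb* begin at a start 65766 and 18983 bases from the gene start used in the counting, and that of *Thrsp* at a start 180 bases inside the gene. Up to 250 bases before the start were searched on both strands for the E-box CACGTG, the sterol response element TCACNCCAC, the NF-Y box CCAAT and the GC box GGGCGG. The E-box was found in 1 member (*Elovl5*), against 6.02% of the 32851 promoters in the table, and the sterol response element in 0 members, against 1.05%. The NF-Y box was found in 5 members (*Acacb*, *Elovl5*, *Fasn*, *Me1* at its other start, and *Thrsp*, whose matches 79 and 52 bases before the RefSeq start lie inside the gene as counted), against 33.8%, and the GC box in 2 (*Acly* and *Me1*), against 32.7%. A match describes the letters in the window and is not a measured binding site. The promoters of *Fasn* and *Elovl6*, which fell in BAT, and of *Me1*, which rose there, are shown to set these genes side by side (*Fasn* chr11:120824548-120824797, minus strand; *Elovl6* chr3:129532136-129532354, plus strand; *Me1* chr9:86695954-86696164, minus strand), 5′ to 3′ with motif matches in capitals.
Fasn: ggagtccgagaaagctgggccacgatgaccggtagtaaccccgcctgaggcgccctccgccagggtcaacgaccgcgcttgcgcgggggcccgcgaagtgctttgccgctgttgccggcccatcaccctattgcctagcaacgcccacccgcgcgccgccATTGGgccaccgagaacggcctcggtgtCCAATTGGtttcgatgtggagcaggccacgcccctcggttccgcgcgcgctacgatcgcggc
Elovl6: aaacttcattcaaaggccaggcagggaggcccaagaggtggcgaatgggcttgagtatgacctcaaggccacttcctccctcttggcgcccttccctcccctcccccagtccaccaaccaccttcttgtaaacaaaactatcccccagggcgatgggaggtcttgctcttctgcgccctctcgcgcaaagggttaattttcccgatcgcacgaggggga
Me1: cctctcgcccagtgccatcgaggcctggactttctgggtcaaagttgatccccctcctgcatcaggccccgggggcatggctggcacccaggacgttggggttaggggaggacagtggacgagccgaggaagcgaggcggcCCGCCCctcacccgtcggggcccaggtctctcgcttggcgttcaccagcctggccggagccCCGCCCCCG
*Fasn* held CCAAT 90, 62 and 59 bases before its start, the matches at 62 and 59 overlapping. *Me1* held GGGCGG 109, 48 and 42 bases before its start, the last of them reaching past the printed end, and *Elovl6* held none of the 4 motifs. These distances are counted from the RefSeq start; for *Me1* and *Elovl6* the print stops at the start of the gene in the counting, 39 and 31 bases before it.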

How the data were processed

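The authors aligned reads with STAR to Ensembl release 101 and counted uniquely aligned reads per gene with featureCounts. The deposited values are counts, 1 table of 55487 genes and 18 libraries. Each tissue was fitted alone with edgeR 4.0.16 in R 4.3.3 (TMM, filterByExpr with a minimum count of 10 and total of 15, robust quasi-likelihood test); the genotype by tissue term was tested on all 18 libraries. Ratios and library measures were compared with exact permutation tests (scipy 1.17.1). Alternatives were RLE size factors, library size alone, other filters, DESeq2 1.42.0, limma 3.58.1 voom with quality weights, all 4 groups in a single fit, a replicate term, no ribosomal or mitochondrial RNA genes, and each library left out. Fits within ribosomal RNA share, or with it as a covariate, were added after the data were seen. The members, gene lists and tests were chosen with earlier results of these data known. All members were named, and from each list the 3 genes called lower and the 3 called higher with the largest log2 fold changes in each tissue, 7 further regulators and carriers (*Srebf1*, *Mlxipl*, *Nr1h3*, *Insig1*, *Mid1ip1*, *Slc25a1*, *Pparg*) whatever their result, and from each marker list the gene with the highest CPM, averaged over both tissues, which favours long genes. The edgeR, DESeq2 and limma steps were tested on simulated data. No outlying library such as sWAT Ctrl replicate 2 was simulated, so that test does not cover its effect on the calls. Total counts ranged from 15835721 to 66719937 per library, so counting error is small for all members, whose lowest count was 134. No library was left out of the results unless so stated. Sequences came from RefSeq.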

Additional observations from a re-analysis of the deposited data

Results flagged for a closer look

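In 52 groups of libraries looked at, 12 held a library far from the others of its group, by the gap to its nearest neighbour over the group's range. Chance gives about 1 in 20 independent groups. The 52 groups share libraries and genes, so the 12 cannot be tested against that rate. In sWAT, Ctrl replicate 2 stood apart in 7 of them: *Acly* (2351 CPM), *Acaca* (2907 CPM), *Fasn* (28748 CPM), *Elovl6* (356 CPM), *Me1* (905 CPM), and the log2 ratios of *Acacb* to *Acaca* (−0.96) and *Elovl5* to *Elovl6* (−1.55). These 7 come from 1 library and are not independent. Ctrl replicate 4 of sWAT was low for *Elovl5* (58.1 CPM). In BAT, Ctrl replicate 3 was high for *Acacb* (5189.6 CPM), Ctrl replicate 4 was low for *Elovl5* (78.0 CPM) and high for the log2 ratio of *Acacb* to *Acaca* (1.24), and *Csn8* AKO replicate 2 was high for *Acacb* (4505 CPM). For 2 members the change with genotype differed between the tissues by the interaction test: *Acacb* (1.14, BAT minus sWAT) and *Me1* (2.16).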

How the results depend on the processing

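The number of members lower in sWAT, 4, was 6 with all 4 groups in a single fit or the ribosomal RNA covariate, 5 with library size alone, the filter at over 1 CPM, DESeq2 or limma voom, 2 with a replicate term and 2 to 5 over leave-one-out fits. In BAT the number lower, 3, was 5 with DESeq2, 4 with no filter or limma voom, 2 with all 4 groups in a single fit and 3 to 4 over leave-one-out fits, and the number higher, 1, was 0 with all 4 groups in a single fit. The number whose change differed between tissues, 2, was 4 with library size alone, 1 with no filter, 4 with the filter at over 1 CPM, 5 with DESeq2, 3 with limma voom, 0 with a replicate term and 0 to 4 over leave-one-out fits. Residual correlations of same-numbered libraries were −0.42 to 0.24 in sWAT and −0.13 to 0.14 in BAT. Of 18 libraries, 4 correlated best with their own number. With 4 or 5 libraries a group, these values cannot show or exclude a pairing by replicate number. DESeq2 gave no adjusted p for *Acly* and *Elovl6* in sWAT. Ratios kept their direction or were not called under every alternative. Of the members' log2 fold changes over both tissues and the interaction, leave-one-out fits lost a call 31 times and gained 9, the fits of 2 libraries against 2 lost 6 and gained 0, and the other alternatives lost 7 and gained 20. The cause of these changes was not tested.

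Among the members, and the genes named by the rule within each tissue, the log2 fold change changed sign in these cases. With limma voom it was 0.18 for *Scd2*, −0.38 for *Cd79a*, 0.019 for *Me3* and 0.077 for *Mid1ip1* in sWAT, and 0.000706 for *Elovl5* in BAT. With library size alone it was 0.13 for *Elovl5* in BAT and 0.064 for its interaction. With the filter at over 1 CPM *Elovl5* in BAT was 0.00135. With a replicate term *Cd79a* in sWAT was −0.48. With only sWAT libraries over 15% ribosomal RNA *Cd79a* was −0.14, and with only those under 5% *Scd2* was 0.000319 and *Me3* 0.052. Leave-one-out values in sWAT ranged from −0.63 to 0.25 for *Scd2* and −0.47 to 0.12 for *Mid1ip1* (both positive without Ctrl replicate 2), −0.55 to 0.016 for *Me3* and −2.73 to 0.91 for *Myh4* (both positive without Ctrl replicate 3), −2.56 to 4.08 for *Cd79a* (negative without *Csn8* AKO replicate 2) and −0.00249 to 0.26 for *Mlx* (negative without *Csn8* AKO replicate 3). They ranged from −0.10 to 0.050 for *Elovl5* in BAT (positive without Ctrl replicates 1 or 3 or *Csn8* AKO replicates 2 or 5), from −0.11 to 0.24 for *Insig1* in BAT (negative without Ctrl replicates 4 or 5 or *Csn8* AKO replicate 2), and from −0.092 to 1.41 for the *Acly* interaction (negative without sWAT Ctrl replicate 2). For the other genes of the lists, and the interaction of all but the members, leave-one-out values fell on both sides of 0 for 22 of 80 in sWAT, 11 of 79 in BAT and 36 of 120 in the interaction, none of them called with all libraries. The cause was not tested.

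Limits: 4 or 5 mice a group; tissue and age were confounded; whole-tissue RNA does not separate cell types; counts per gene do not isolate the deleted exons; strand use in counting is not stated.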
